A study of Mus musculus with 6 samples.

Results

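The genes described are the potassium channel genes of the mouse tail artery outside the Kv1 family: every gene whose platform symbol starts with Kcn, leaving out symbols starting with Kcna (the Kv1 pores and their beta subunits) and Kcnj8. These were 73 genes of the 18193 that the array names, read by 144 probe sets, and 39 of them had more than 1 probe set. The brightest probe set of a gene, by its mean over the 6 arrays, stands for it, and other probe sets are given as support for the genes the results turn on. The members were chosen by name and not by their values, though with earlier results of these data known.

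RNA levels were measured in the caudal (tail) artery of mice aged 4 weeks (P28). One group carried both copies of Notch3, a Notch receptor of arterial smooth muscle (Notch3+/+), and the other lacked it (Notch3-/-). RNA was pooled over 4, 3 and 3 mice in Notch3+/+ replicates 1 to 3 and over 4 mice in each Notch3-/- replicate, and each pool was run on 1 Affymetrix mouse array, so n = 3 pools per genotype. The labels describe neither the targeted allele nor the sex or background strain of the mice, and whole arteries were used, so that fewer cells of a type and less RNA per cell cannot be told apart.

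Potassium channels set the membrane potential of arterial smooth muscle: opening them lets potassium leave, hyperpolarises the cell, closes voltage-gated calcium channels and relaxes the vessel. Large-conductance BK channels answer local calcium release from the sarcoplasmic reticulum, KATP channels answer the metabolic state, tandem-pore K2P channels carry background current, and voltage-gated Kv channels answer depolarisation. In the endothelium the small- and intermediate-conductance SK and IK channels start a hyperpolarisation that spreads to the muscle.

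All values are log2 RMA expression values (RMA removes background, gives all arrays 1 distribution and combines each set's probes into 1 value), and differences are Notch3-/- minus Notch3+/+ in log2 units. The genotypes were compared with limma over the 27027 probe sets whose mean over the 6 arrays reached 3.83, the 40th percentile, with Benjamini-Hochberg adjustment and a threshold of 0.05. Notch3 read 9.94, 9.95 and 10.09 in the Notch3+/+ pools and 6.51, 6.44 and 5.87 in the Notch3-/- pools on its brighter probe set, a fall of 3.72 (SE 0.17) with a limma adjusted p of 0.000529. The smooth muscle genes Acta2 (13.18 to 13.25) and Myh11 (11.80 to 12.21) were near the top of the scale in every pool. Notch3-/- replicate 2 stood apart from the other arrays on the first principal component (39.5 against -17.1 to 5.85).

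No potassium channel gene passed the threshold. Of the 73 genes, 33 passed the level filter and were tested. Of these, 0 were called higher and 0 lower, against 0.196% called higher and 0.126% called lower over the 12732 genes tested. Their limma adjusted p ran from 0.395 to 0.990. At an unadjusted p under 0.05 there were 2 genes, Kcnma1 (lower) and Kcnmb4 (higher), or 6.06%, against 11.9% of all genes tested. The count was therefore below the background share.

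The differences were mostly small beside their 95% intervals, which reached 0.24 to either side at the median and 0.48 at the widest. The differences ran from -0.51 (Kcnma1) to 0.33 (Kcnn1), and 26 of the 33 lay within 0.2 of 0. The median was -0.05, beside -0.0033 over all genes tested, with 21 genes lower and 12 higher. With each array centred on its median the split was 17 lower and 15 higher, with 1 at 0. The 95% interval of the difference, taken from the limma fit gene by gene, lay within -1 to 1 for all 33 tested genes on their brightest probe sets, and within -0.5 to 0.5 for 27. The second tested probe set of Kcnma1 had an interval of -1.35 to -0.41, which holds a 2-fold lower value. The genotypes' pools did not overlap for 6 tested genes, 18.2%, against 17.3% of all genes tested: Kcnj11 and Kcnmb4 were higher (9.46% of all genes tested), and Kcnj9, Kcnmb2, Kcnc4 and Kcnq5 lower (7.88%). That share is close to the background.

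**Figure D1:**
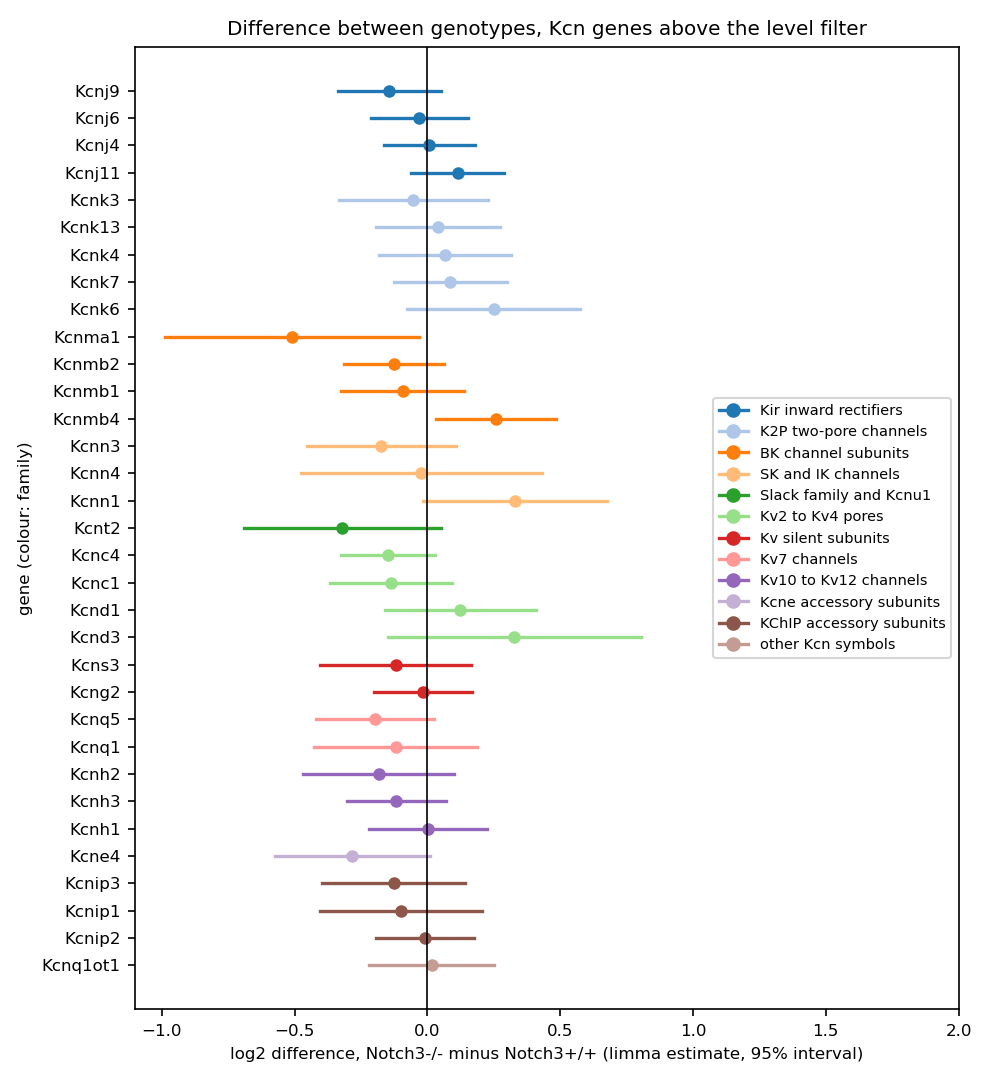
Log2 difference between Notch3-/- and Notch3+/+ arteries (x axis) for the 33 tested potassium channel genes (y axis), with the limma estimate as a point and its 95% interval as a line, coloured by family. All points lie between -0.51 (Kcnma1) and 0.33 (Kcnn1), and the intervals of Kcnma1 and Kcnmb4 leave out 0.

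Which families the artery expresses was read against a stand-in for absent transcripts, because the deposited values carry no detection call. The stand-in was the 95th percentile of the Notch3+/+ mean over 80 probe sets of olfactory and vomeronasal receptor genes, 6.46. The level of a probe set depends on its own probes as well as on its transcript, so each gene was set against this mark and not against another gene. Above it lay 9 genes: Kcnj11, Kcnk3, Kcnk6, Kcnma1, Kcnmb1, Kcnn4, Kcnh2, Kcne4 and the long non-coding RNA gene Kcnq1ot1. The 5 brightest probe sets of the stand-in belonged to Olfr78 and Olfr558, receptor genes known to be expressed in vascular smooth muscle. Without these genes, a choice made after the values were seen, the mark was 4.16 and 28 genes lay above it.

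**Figure D2:**
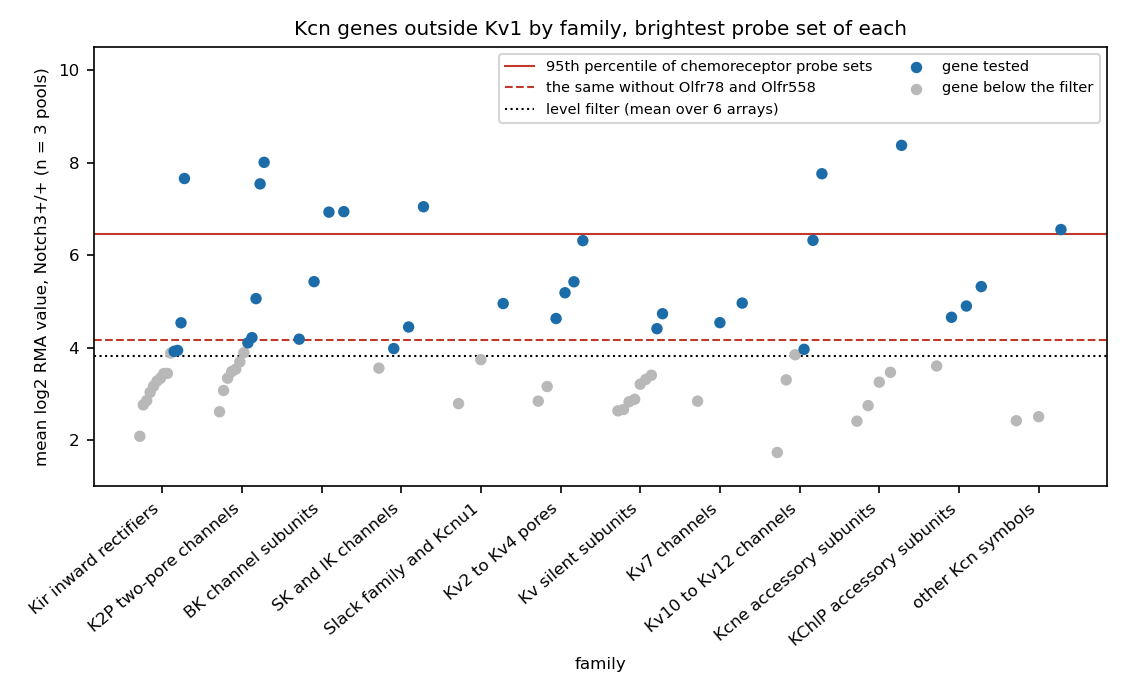
Mean log2 RMA value in the 3 Notch3+/+ pools (y axis) of the brightest probe set of each of 73 potassium channel genes, by family (x axis). Blue points are the 33 tested genes and grey points the 40 below the level filter (dotted line, 3.83, applied to the mean over 6 arrays); the red lines mark the chemoreceptor stand-in at 6.46 and, without Olfr78 and Olfr558, at 4.16.

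Notch receptors act on transcription through the DNA-binding protein RBPJ, whose site has the core TGGGAA. Sequences around the starts of these genes are therefore shown. The windows ran from 250 bases before to 50 bases after a start, from RefSeq on GRCm38.p6, and 55 of the 73 genes had at least 1, with 76 windows in all. The core occurred on either strand in 18 of them, 23.7%, against 25.6% of all 32851 windows. A CArG box, the site of the smooth muscle regulator SRF, searched on both strands, occurred in 0 of the 76 and in 1.63% of all windows. The first sequence is the 250 bases before a start of Kcnma1 (chr14:24004206-24004455, minus strand), the gene with the largest difference among those tested. It holds neither motif, which says only that these letters are not in this window.
Kcnma1: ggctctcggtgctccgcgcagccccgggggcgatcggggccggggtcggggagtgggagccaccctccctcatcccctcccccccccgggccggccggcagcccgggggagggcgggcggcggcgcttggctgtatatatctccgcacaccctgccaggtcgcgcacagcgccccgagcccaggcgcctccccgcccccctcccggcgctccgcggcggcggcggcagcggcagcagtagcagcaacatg

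The remaining sequences are 30-base stretches around the core, in capitals on whichever strand it was found. They come from 5 of the genes named in the results and are a selection. Other named genes, Kcnj9 and Kcnk4 among them, also held the core, and Kcnd3, Kcnq5 and Kcnt2 were named after their values were seen. Kcnmb1 (chr11:33963033-33963062, plus strand) has 2 matches, which begin at bases 28 and 42 counted from the start. Kcnh2 (chr5:24329562-24329591, minus strand) is shown with 1 of 2 matches. The others are Kcnd3 (chr3:105451708-105451737, plus strand), Kcnq5 (chr1:21962837-21962866, minus strand) and Kcnt2 (chr1:140245538-140245567, plus strand).
Kcnmb1: catctgtTTCCCAggagactcTGGGAAatg
Kcnh2: gaggagctgcggTTCCCAccgcgggtgctg
Kcnd3: gtggacagtgaaTGGGAAacagacagccag
Kcnq5: tattagaaggagTTCCCAatcctggtgtcc
Kcnt2: cccctcatccacTTCCCAggaagggtctgg
None of these 5 genes was called. A match is a run of letters and was not tested as a binding site.

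The BK channel family held both genes with an unadjusted p under 0.05, Kcnma1 lower and Kcnmb4 higher, neither of them called. All 4 of its genes on the array were tested. Kcnma1, which encodes the pore, read 6.57, 7.01 and 7.24 in the Notch3+/+ pools and 6.20, 6.78 and 6.31 in the Notch3-/- pools. Notch3-/- replicate 2 lay inside the Notch3+/+ range and the other 2 pools lay below it. The means were 6.94 ± 0.34 and 6.43 ± 0.31 (SD, n = 3), a difference of -0.51 (SE 0.21), or 1.42-fold lower, with a limma adjusted p of 0.416.

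The other Kcnma1 probe sets pointed the same way. The second brightest read 6.56, 6.93 and 6.80 in Notch3+/+ and 6.08, 5.42 and 6.15 in Notch3-/- pools, a difference of -0.88 (SE 0.20), or 1.84-fold lower, with a limma adjusted p of 0.193. Here the genotypes did not overlap, and Notch3-/- replicate 2, the highest of its group on the brightest probe set, was the lowest. The 3 dimmer probe sets lay below the level filter, with differences of -0.50, -0.76 and -0.35. In the limma fit without the filter their adjusted p were 0.396, 0.0988 and 0.241. All 5 probe sets were thus lower in Notch3-/- arteries, and 4 of the 5 had no overlap between the genotypes. Lower without overlap were 7.68% of all 45037 probe sets and 12.5% of the 144 member probe sets. Kcnma1 was named for its unadjusted p in these same arrays, so the count is no separate support. The 5 Kcnma1 probe sets read the same 6 RNAs and are not independent of one another.

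**Figure D3:**
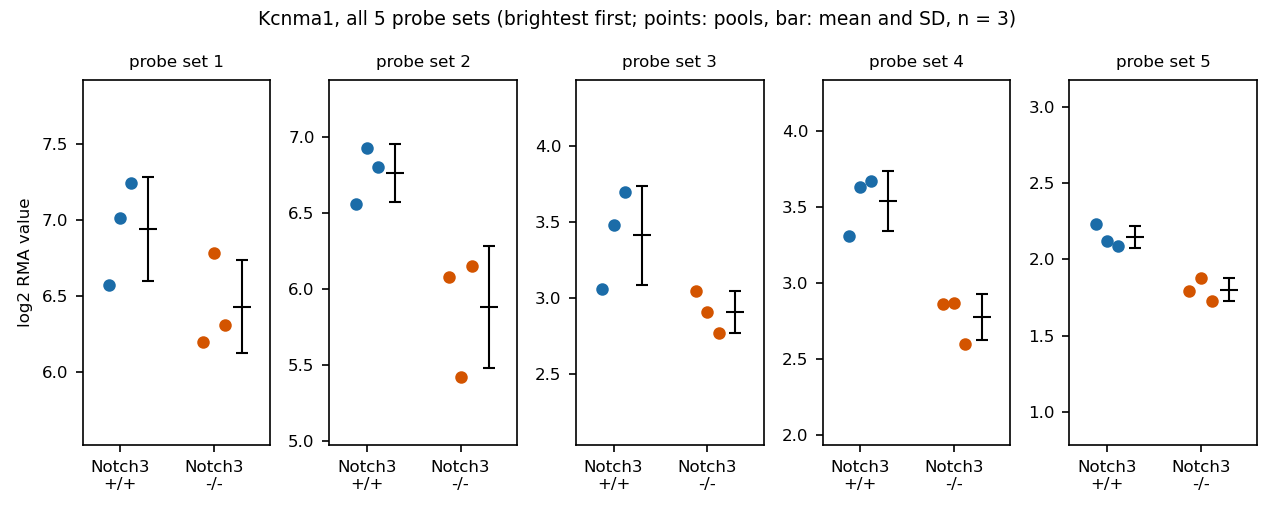
Log2 RMA values (y axis) of the 5 Kcnma1 probe sets in the Notch3+/+ and Notch3-/- pools (x axis), brightest first, with each pool as a point and the mean and SD (n = 3) as a bar; each panel spans the same height in log2 units. Every probe set is lower on average without Notch3, by 0.35 to 0.88, and on the brightest the pools overlap.

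Whether Kcnma1 passed the threshold depended on how pools were weighted, while its 2 tested probe sets were lower under every setting. With array weights, which gave Notch3-/- replicate 2 a weight of 0.290 and Notch3-/- replicate 3 a weight of 3.04, the brightest probe set passed at -0.65 (limma adjusted p = 0.0434) and the second at -0.76 (adjusted p = 0.0247). That setting raised the calls over all probe sets from 68 (0.252% of those tested) to 978. Without Notch3-/- replicate 2 the brightest probe set read -0.685 (limma adjusted p = 0.353), and over the omissions of 1 array its difference was lowest at -0.70 (no Notch3+/+ replicate 1) and nearest to 0 at -0.36 (no Notch3+/+ replicate 3). With all 5 probe sets averaged the difference was -0.60 (limma adjusted p = 0.107).

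The beta subunits, which tune the calcium sensitivity and gating of the BK pore, gave smaller differences than Kcnma1. Kcnmb1, the smooth muscle beta subunit, read 6.81, 6.87 and 7.11 in Notch3+/+ and 6.87, 6.87 and 6.77 in Notch3-/- pools, and the groups overlapped. Its difference was -0.09 (SE 0.10, 95% interval -0.32 to 0.14), with a limma adjusted p of 0.735, and its other probe set read -0.13. Kcnmb4, best known as the neuronal beta subunit, read 5.54, 5.49 and 5.25 in Notch3+/+ and 5.63, 5.70 and 5.72 in Notch3-/- pools. Every Notch3-/- pool lay above every Notch3+/+ pool, by 0.26 on average (SE 0.10), or 1.19-fold, with an unadjusted p of 0.0310 and a limma adjusted p of 0.395. Without Notch3+/+ replicate 3 the difference was 0.17. Kcnmb2 differed by -0.13. Whether the subunits' differences differ from one another was not tested.

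Among the inward rectifiers, which pass current near the resting potential, 4 of 14 genes were tested. Kcnj11, the Kir6.2 pore of KATP channels, read 7.67, 7.59 and 7.71 in Notch3+/+ and 7.73, 7.77 and 7.81 in Notch3-/- pools. The Notch3-/- pools were all higher, but by no more than 0.11 on average (SE 0.08, 95% interval -0.06 to 0.29, limma adjusted p = 0.603). Its second probe set, below the filter, read -0.04. The GIRK genes Kcnj9 (-0.14) and Kcnj6 (-0.03), whose channels are opened by G proteins, and the strong rectifier gene Kcnj4 (0.01) read between 3.81 and 4.59 in every pool. Kcnj2, the Kir2.1 channel of resistance arteries, read 1.92 to 2.32 in the Notch3+/+ pools and 1.94 to 2.06 in the Notch3-/- pools on its single probe set, below the filter. The 10 genes below the filter had Notch3+/+ means of 2.08 to 3.88.

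Among the K2P channels, 5 of 12 genes were tested and 4 of these were positive. Kcnk3, the acid-sensitive background channel TASK-1, read 8.09, 7.93 and 8.0 in Notch3+/+ and 8.10, 7.70 and 8.06 in Notch3-/- pools. The groups overlapped, at a difference of -0.05 (SE 0.12, 95% interval -0.33 to 0.23, limma adjusted p = 0.886), and its 3 tested probe sets ran from -0.21 to -0.04. Without Notch3-/- replicate 2 the value was 0.07. Kcnk6, the channel TWIK-2 of vascular muscle, read 7.61, 7.60 and 7.41 in Notch3+/+ and 7.80, 8.05 and 7.52 in Notch3-/- pools, a difference of 0.25 (SE 0.14) with a limma adjusted p of 0.543. The highest Kcnk6 value was that of Notch3-/- replicate 2, and without it the difference was 0.12. Without Notch3-/- replicate 3 it was 0.385, and with array weights 0.04. The mechanically gated TRAAK gene Kcnk4 (0.07), Kcnk7 (0.09) and Kcnk13 (0.04) were nearer to 0. Kcnk2, the stretch-gated channel TREK-1, was below the filter at 3.27 to 3.42 in Notch3+/+ pools.

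The calcium-activated SK and IK channels had 3 of 4 genes tested. Kcnn4, the endothelial IK channel, read 7.09, 7.02 and 7.03 in Notch3+/+ and 6.87, 7.51 and 6.69 in Notch3-/- pools. Its Notch3-/- pools lay on both sides of the tight Notch3+/+ values, with SDs of 0.43 and 0.04, and the difference was -0.02 (SE 0.19, limma adjusted p = 0.972). Without Notch3-/- replicate 2 it was -0.27, and without Notch3-/- replicate 3 it was 0.14. Kcnn3, the endothelial SK3 channel, read 3.81 to 4.21 in Notch3+/+ pools and 3.68 to 3.89 in Notch3-/- pools, a difference of -0.17 (limma adjusted p = 0.618). Of 12 endothelial marker genes, all tested, 9 were lower, with a median of -0.24. Their mean log2 level ran from 8.72 to 8.83 in Notch3+/+ pools and 8.53 to 8.65 in Notch3-/- pools; its part in these values was not tested. Kcnn1, the SK1 channel, read 4.69, 4.53 and 4.12 in Notch3+/+ and 4.69, 4.75 and 4.89 in Notch3-/- pools. Its difference, 0.33 (SE 0.15), was the highest of the tested genes, with an adjusted p of 0.465 from limma, and its other probe set read 0.13. Without Notch3+/+ replicate 3, its lowest pool, the difference was 0.17. Kcnt2, a sodium-activated channel and the 1 tested gene of the Slack family, read 4.91 to 5.0 in the Notch3+/+ pools and 4.34, 5.0 and 4.56 in Notch3-/- pools, a difference of -0.32 (SE 0.16, limma adjusted p = 0.501). It was -0.17 without Notch3-/- replicate 1 and -0.50 without Notch3-/- replicate 2.

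Only Kcnh2, of the Kv2 to Kv4, Kv7 and Kv10 to Kv12 pores, lay above the chemoreceptor mark of 6.46. Above 4.16, the mark without Olfr78 and Olfr558, lay 4 Kv2 to Kv4, 2 Kv7 and 2 Kv10 to Kv12 genes. Of the Kv2 to Kv4 genes on the array, 4 of 6 were tested. Kcnd3, the A-type channel Kv4.3, read 5.96, 6.36 and 6.62 in Notch3+/+ and 6.28, 6.79 and 6.85 in Notch3-/- pools, a difference of 0.33 (SE 0.20, limma adjusted p = 0.579). It was 0.15 without Notch3+/+ replicate 1 and 0.51 without Notch3-/- replicate 1. The 3 other Kcnd3 probe sets, below the filter, read -0.03, -0.14 and 0.13, and the average of all 4 read 0.07. The spread among pools of 1 genotype, with SDs of 0.33 and 0.31, was as large as the difference between genotypes. Kcnd1 read 5.82 in Notch3-/- replicate 1 and 5.41 to 5.45 in the other 5 pools. The Kv3 genes Kcnc1 (-0.14) and Kcnc4 (-0.15) were lower on their brightest probe sets, and the 2 tested probe sets of Kcnc4 differed in sign.

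Kv7 channels, which limit depolarisation of arterial muscle, had 2 of 3 genes tested. Kcnq5 read 4.94, 4.89 and 5.06 in Notch3+/+ and 4.62, 4.81 and 4.87 in Notch3-/- pools, which did not overlap. Its difference was -0.20 (SE 0.10, limma adjusted p = 0.493), or -0.12 without Notch3-/- replicate 1, while Kcnq1 read -0.12 and overlapped. Of the Kv10 to Kv12 genes, 3 of 6 were tested. Kcnh2, the ERG channel, read 7.61, 7.70 and 7.97 in Notch3+/+ and 7.71, 7.60 and 7.42 in Notch3-/- pools, a difference of -0.18 (SE 0.12, limma adjusted p = 0.601). It was -0.08 without Notch3+/+ replicate 3 and -0.11 without Notch3-/- replicate 3. Kcnh3 (-0.12) had 3 tested probe sets, all lower, from -0.37 to -0.12, and Kcnh1 differed by 0.00.

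The 4 tested accessory subunit genes of the Kcne and KChIP families read lower by 0.01 to 0.28, where 21 of all 33 tested genes were lower. Kcne4, a membrane subunit that regulates Kv7 and other Kv channels in arteries, read 8.10, 8.44 and 8.58 in Notch3+/+ and 8.07, 8.08 and 8.12 in Notch3-/- pools. The Notch3-/- pools were close together, and Notch3+/+ replicate 1 lay among them. The difference was -0.28 (SE 0.13, 95% interval -0.58 to 0.01), or 1.22-fold lower, with a limma adjusted p of 0.458. Leaving out 1 array moved it from -0.42 (no Notch3+/+ replicate 1) to -0.18 (no Notch3+/+ replicate 3). The other 4 Kcne genes were below the filter. The KChIP genes Kcnip1 (-0.10), Kcnip2 (-0.01) and Kcnip3 (-0.13), calcium-binding partners of Kv4 pores, were tested, and Kcnip4 was below the filter.

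The widest difference of any member lay in a silent subunit below the level filter. Silent Kv subunits form no channel of their own and alter Kv2 pores when they join them. Of 9 such genes, Kcng2 (-0.02) and Kcns3 (-0.12) were tested. Kcng1, which encodes Kv6.1, read 3.51, 3.30 and 3.13 in Notch3+/+ and 4.45, 3.92 and 4.36 in Notch3-/- pools, and was singled out after its values were seen. Every Notch3-/- pool lay above every Notch3+/+ pool, by 0.93 on average, or 1.91-fold.

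The Kcng1 mean over the 6 arrays, 3.78, missed the filter level of 3.83. In the fit without the filter its limma adjusted p was 0.109 (SE 0.16), and with the filter at the 20th percentile 0.101. Over the omissions of 1 array the difference ran from 0.83 to 1.09. Its other probe set read 2.76 to 2.94 in Notch3+/+ pools and 2.83 to 2.98 in Notch3-/- pools, a difference of 0.05, so the difference rests on 1 probe set.

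**Figure D4:**
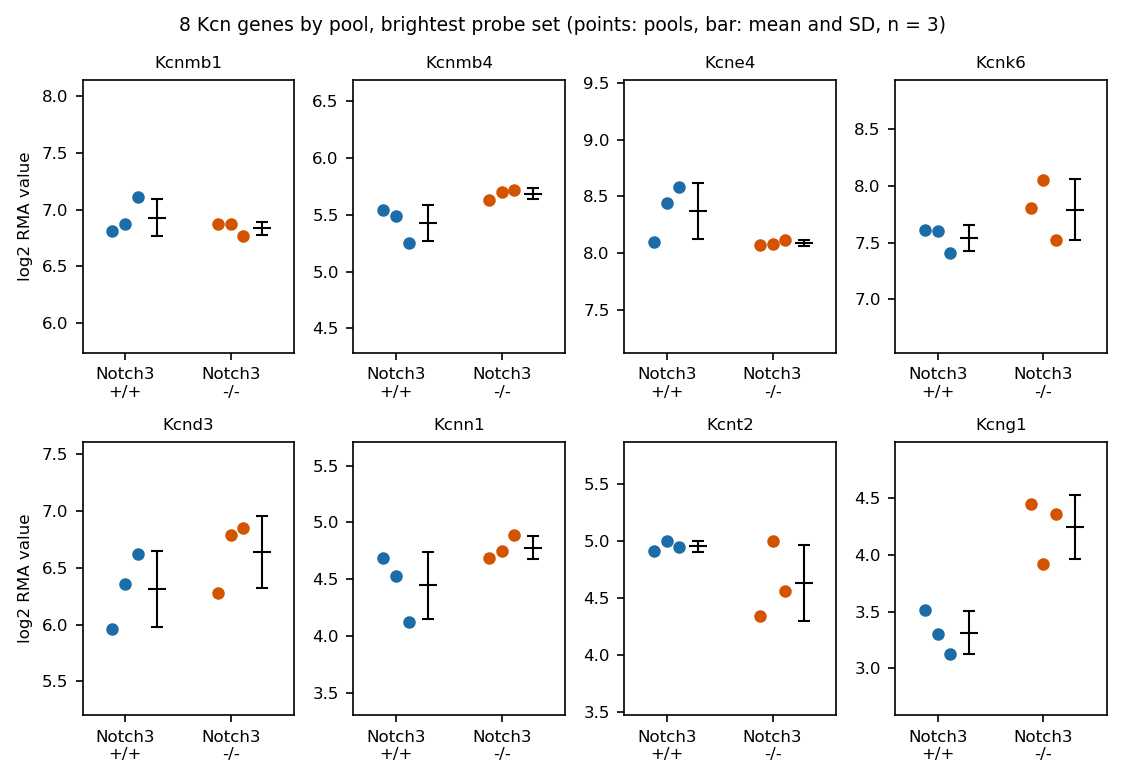
Log2 RMA values (y axis) of 8 potassium channel genes in the Notch3+/+ and Notch3-/- pools (x axis), on the brightest probe set, with each pool as a point and the mean and SD (n = 3) as a bar; each panel spans the same height in log2 units. The genotypes are apart for Kcng1 (by 0.93 on average) and Kcnmb4 (by 0.26) and overlap for the other 6 genes.

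Kcng1 was 1 of 40 members below the filter. The others were most Kir genes (Kcnj1, Kcnj2, Kcnj3, Kcnj5, Kcnj10 and Kcnj12 to Kcnj16), the K2P genes Kcnk1, Kcnk2, Kcnk5, Kcnk10, Kcnk12, Kcnk15 and Kcnk16, and the calcium- or sodium-activated and related pores Kcnn2, Kcnt1 and Kcnu1. The Kv pores Kcnc2, Kcnd2, Kcnq3, Kcnh5, Kcnh7 and Kcnh8, the silent subunits Kcnf1, Kcng4, Kcns1, Kcns2, Kcnv1 and Kcnv2, and the partners Kcne1, Kcne1l, Kcne2, Kcne3 and Kcnip4 were also below it. Of the 40 genes below the filter, 34 lay within 0.2 of 0. Read from the fit without the filter, 7 of all 73 genes had an unadjusted p under 0.05, or 9.59%, against 10.8% of all 18193 genes, and 0 passed in limma after adjustment (0.192% of all genes passed). Beside Kcnma1, Kcnmb4, Kcng1 and Kcne4 these were Kcnk1 (-0.26), Kcnj12 (-0.29) and Kcne2 (-0.22). Kcnk1 read 3.51 to 3.55 in Notch3+/+ pools and 3.27 to 3.29 in Notch3-/- pools, which did not overlap, while its other probe set read 0.04. Kcnj12, a Kir2 channel gene, read 3.37 to 3.54 in Notch3+/+ pools and 3.11 to 3.20 in Notch3-/- pools. RMA compresses differences at such low values.

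The 3 members that are not channel genes gave no call. Kcnq1ot1, a non-coding RNA made from within the Kcnq1 gene on the opposite strand, read 6.50 to 6.62 in Notch3+/+ pools and 6.38 to 6.67 in Notch3-/- pools, a difference of 0.02 (limma adjusted p = 0.962), and its 3 tested probe sets ran from -0.07 to 0.20. The antisense genes Kcnmb4os1 and Kcnmb4os2 were below the filter.

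Partner proteins of the channels and the genes acting just before the BK channel were described by lists that were drawn up with earlier results of these data known. Of 9 partner subunit genes, 4 were tested, and 0 were called higher and 0 lower in limma. By unadjusted p under 0.05 there was 1, Abcc9, the sulphonylurea receptor SUR2 that joins Kir6 pores in KATP channels and is also on the pericyte list. It read 8.78, 8.93 and 8.74 in Notch3+/+ and 9.07, 9.28 and 9.41 in Notch3-/- pools, without overlap, a difference of 0.44 (SE 0.11, limma adjusted p = 0.232). Kcnj11, the Kir6 pore gene among the members, differed by 0.11 in the same pools. Kcnj8 is outside the members and was not read here.

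Of 12 calcium spark and cyclic GMP genes, 10 were tested, 0 were called higher and 0 lower in limma, and 4 had an unadjusted p under 0.05, a level that 11.9% of all genes tested reached. The ryanodine receptor gene Ryr2, a source of the calcium sparks that open BK channels, read 6.03, 6.35 and 6.59 in Notch3+/+ and 5.82, 5.85 and 5.97 in Notch3-/- pools, a difference of -0.44 (limma adjusted p = 0.326). Ryr3 differed by 0.52, the calcium channel subunit genes Cacnb2 by -0.61 and Cacna2d1 by -0.31, with limma adjusted p of 0.0974, 0.126 and 0.369. The list median was -0.16.

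Cell type markers were measured beside these values, and their part in the results was not tested, endothelial markers being given above. Of 8 smooth muscle markers 4 were lower, with a median of -0.01, and their mean log2 level was 10.59 to 10.93 with Notch3 and 10.63 to 10.70 without it. That median covers differences in both directions. By unadjusted limma p under 0.05 there were 3, against 11.9% of all genes tested: Cnn1 (0.51), Smtn (-0.58) and Myocd (-0.39). In limma 0 of the 8 were called. All 11 tested skeletal muscle markers were lower (median -0.29), with a mean level of 6.21 to 6.47 in Notch3+/+ pools and 5.64 to 6.52 in Notch3-/- pools, the lowest being Notch3-/- replicate 2. Of 7 tested Schwann cell and nerve markers 6 were lower (median -0.22), with a mean level of 6.24 to 6.31 in Notch3+/+ pools and 6.05 to 6.20 in Notch3-/- pools. Mast cell markers (7 of 7, median 0.76), macrophage and leukocyte markers (9 of 9, median 0.50), fibroblast markers (7 of 8, median 0.19) and keratinocyte markers (4 of 4, median 0.18) were higher. The fibroblast marker Dpt was called higher (0.58, limma adjusted p = 0.0499), 1 of 8 against 0.196% of all genes tested. Adipocyte markers (4 of 5, median -0.18) and pericyte markers (4 of 6, median -0.10) were lower. Of the listed markers, Th, Tubb3, Myh4, Lep, Ucp1, Krt14 and Sfn lay below the level filter.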

How the data were processed

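The authors deposited 1 table of log2 values, 1 column per array, and the submitters' processing notes name RMA. The RMA version was not given in the sources used here, and no scanner files or batch labels were used. Of 45101 probe sets, 64 controls were left out. Genes were named from the platform annotation, using probe sets with a single symbol. The level filter, the limma fit (limma 3.58.1, R 4.3.3, lmFit and eBayes, genotype as the only term) and the adjustment are described above; p-values are two-sided. The labels call the pools biological replicates, and 3 arrays per genotype limit the precision. The fit was tested on simulated arrays with independent normal noise. It called 54% of the probe sets changed 1.5-fold, 78% of those changed 2-fold, 96% at 4-fold and 100% at 8-fold. No simulated array was made to stand apart as Notch3-/- replicate 2 did here, so these shares may not hold for the real pools.

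The members, families and lists were chosen with earlier results of these data known. The genes named by rule were those with an unadjusted p under 0.05 and, per family, up to 3 of the brightest genes above the chemoreceptor stand-in (10 genes). Others complete counts or were named after their values were seen. The settings varied were the level filter, variance model, normalization, weights, replicate block, threshold, probe sets, stand-in and omitted arrays.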

Additional observations from a re-analysis of the deposited data

How the results depend on the processing

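The count of 0 called potassium channel genes held in both directions under every setting run except array weights, which called 1 lower (Kcnma1) and 0 higher. Over all probe sets, 68 were called, 142 at an adjusted p under 0.10, 978 with array weights, and 13 to 62 with 1 array left out (lowest without Notch3+/+ replicate 2). The count of genes at an unadjusted p under 0.05, 2 in the reported fit, was 7 without the filter, 5 with it at the 20th percentile, 4 after a further quantile normalization, 11 with array weights, 1 with arrays weighted by mice pooled, 6 with the genes below the filter read from the unfiltered fit (a setting chosen after seeing the data), and 0 to 4 with 1 array left out. The median difference, -0.05, was -0.0167 with the filter at the 60th percentile, -0.0233 with centred arrays and -0.089 with array weights. The number of genes above the chemoreceptor stand-in, 9, was 26 at its 90th percentile, 0 at its 99th and 28 without Olfr78 and Olfr558.

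With the replicate number as a block, 6 genes had an unadjusted p under 0.05 and 0 were called in limma. Deviations of same-numbered pools correlated at 0.242, 0.0465 and -0.0672, and those of differently numbered pools at -0.174 to 0.143. Not every pool correlated best with its own number. With 3 pools per genotype these values cannot decide whether the numbers pair the pools.

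Of 160 values of the 10 genes named by rule under other settings, 150 kept direction and side of the threshold, 1 passed newly (Kcnma1, array weights, -0.65) and 9 changed sign, all near 0: Kcnk3 with array weights (0.0697), Kcnn4 with centred arrays (0.0067), Kcnq1ot1 with array weights (-0.14), and Kcnk3 (-0.127 to 0.0733), Kcnn4 (-0.27 to 0.14) and Kcnq1ot1 (-0.0333 to 0.11) with 1 array left out. The causes were not tested.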
